A study of Homo sapiens with 4 samples.

Results

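The regions described here are 930 peaks of Flag-tagged FLI1 that lay at the promoters of long non-coding RNA (lncRNA) genes standing apart from protein-coding promoters. FLI1 is a transcription factor of the ETS family, whose members bind a short DNA core, GGAA, and the bases around that core set how well each member binds. lncRNA genes are transcribed and often spliced like coding genes but make no protein. Some act as nuclear scaffolds, some carry small nucleolar RNAs (snoRNAs) or microRNAs in their introns, and many have no known role. The fusion of EWS with FLI1 in Ewing sarcoma is known for binding tandem repeats of this core.

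The chromatin came from HK1, an established line of nasopharyngeal carcinoma cells, made to overexpress FLI1 with a Flag tag and precipitated with an antibody to that tag, which reads the added protein and not the cells' own FLI1. Both groups carried this overexpression. The control cells received PBS and the other cells received IFN-γ for 24 h, with 1 Flag library each, so no test of the treatment was possible and a difference between treatments cannot be told apart from a difference between libraries. The authors called peaks in each library on its own and deposited 30819 control and 39654 IFN-γ peaks with their summits, fold enrichments over local background and −log10 p values.

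Peaks were selected on their called positions in both libraries. A control peak was taken if 1 bp or more of it lay in an IFN-γ peak, if its summit lay within 1 kb of a transcription start site (TSS) of a lncRNA gene, and if no TSS of a protein-coding gene lay within 3 kb of the peak. Of 23895 control peaks shared with the IFN-γ list, 930 met the rule, or 3.89% (exact Clopper-Pearson 95% interval 3.65% to 4.15%, for counting error only). They lay nearest to 861 lncRNA genes on 23 chromosomes. Of these genes, 383 had a gene symbol, and 498 of the 930 peaks belonged to genes known by an identifier alone. A further 2314 shared peaks had a lncRNA TSS within 1 kb but also a coding TSS within 3 kb, and 269 control peaks met the rule except that no IFN-γ peak overlapped them. In the longer IFN-γ list, 1341 peaks met both distance limits and 412 of these overlapped no control peak. Peaks in 1 list alone do not enter the ratios below.

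The limits of the rule fell between peaks that differed little in distance. The summits at ENSG00000290762 and LINC01730 lay 998 and 997 bp upstream of the lncRNA TSS, with control fold enrichments of 20.4 and 8.55. Those at ENSG00000261578 and MIR181A2HG lay just outside, at 1002 and 1012 bp, with 19.5 and 6.86. The peaks of ENSG00000224621 and ENSG00000284657 were kept with a coding TSS 3029 and 3074 bp away and had control fold enrichments of 5.29 and 21.9, and those of ENSG00000236162 and ZBTB7C-AS1 were left out at 2992 and 2962 bp with 10.7 and 10.2.

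The DNA under a few of these summits shows the range of sequence that the chosen peaks held. Each line below gives the control summit with 50 bp either side of it, read from GRCh38 on the strand of the lncRNA gene, 5′ to 3′. In the first set the capitals mark the ETS octamers CAGGAAGT and CCGGAAGT, or their reverse complements. These 6 were shown because GP6-AS1, MIATNB and GIHCG were among the peaks with the most octamers and because MIR762HG, LINC01366 and NORAD carried 1 octamer under strong peaks. GP6-AS1 lay at chr19:55006093-55006193 on the plus strand, MIATNB at chr22:26672712-26672812 on the plus strand, MIR762HG at chr16:30875346-30875446 on the plus strand, LINC01366 at chr5:170331285-170331385 on the plus strand, NORAD at chr20:36050952-36051052 on the minus strand and GIHCG at chr12:57936150-57936250 on the minus strand. MIR762HG and GIHCG lay inside the coding genes BCL7C and ATP23 on the opposite strand, and the other 4 lay outside coding genes.
GP6-AS1: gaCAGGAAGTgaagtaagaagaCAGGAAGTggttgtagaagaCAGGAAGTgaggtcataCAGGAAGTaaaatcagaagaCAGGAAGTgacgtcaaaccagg
MIATNB: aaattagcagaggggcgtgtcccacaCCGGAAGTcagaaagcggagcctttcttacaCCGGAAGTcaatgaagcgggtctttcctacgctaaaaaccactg
MIR762HG: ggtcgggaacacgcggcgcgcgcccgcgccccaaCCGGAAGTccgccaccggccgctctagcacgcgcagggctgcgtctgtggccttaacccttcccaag
LINC01366: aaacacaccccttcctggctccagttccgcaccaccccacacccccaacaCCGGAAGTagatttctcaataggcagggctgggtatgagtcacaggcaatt
NORAD: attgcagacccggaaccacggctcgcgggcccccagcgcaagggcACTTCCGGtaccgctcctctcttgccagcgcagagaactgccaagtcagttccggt
GIHCG: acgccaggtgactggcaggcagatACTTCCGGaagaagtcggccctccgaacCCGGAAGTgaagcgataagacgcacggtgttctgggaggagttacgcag

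The second set shows peaks that held no octamer, with the bare core GGAA or TTCC in capitals. SNHG11 (chr20:38446591-38446691, plus strand), SNHG17 (chr20:38435342-38435442, minus strand) and LINC01503 (chr9:129334132-129334232, plus strand) were among the tallest of the lncRNA peaks in the control library, and ENSG00000250934 (chr3:126284397-126284497, plus strand) was chosen after its values were seen, for the difference between its pileups at nearly the same summit. All 4 lay outside coding genes. The LINC01503 window also held an AP-1 heptamer, tgagtca, as did that of LINC01366 above.
SNHG11: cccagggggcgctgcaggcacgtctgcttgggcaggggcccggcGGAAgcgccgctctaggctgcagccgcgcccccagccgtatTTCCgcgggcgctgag
SNHG17: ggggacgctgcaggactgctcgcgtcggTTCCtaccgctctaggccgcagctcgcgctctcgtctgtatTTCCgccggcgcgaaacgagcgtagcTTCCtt
LINC01503: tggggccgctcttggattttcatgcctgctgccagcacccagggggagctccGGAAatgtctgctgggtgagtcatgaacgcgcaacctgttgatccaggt
ENSG00000250934: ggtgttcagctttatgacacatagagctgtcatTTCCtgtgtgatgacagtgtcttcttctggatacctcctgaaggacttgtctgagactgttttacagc

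The last set shows the GGAA repeats, in capitals, of ENSG00000260580 (chr16:26722030-26722130, plus strand) and LINC01627 (chr9:37384074-37384174, minus strand), which were among the longest, and the octamer and AP-1 heptamer of LUCAT1 (chr5:91311866-91311966, minus strand), a lncRNA known to limit interferon responses. All 3 lay outside coding genes. Both repeats ran on beyond the left end of the window, to 96 and 72 bp from the summit.
ENSG00000260580: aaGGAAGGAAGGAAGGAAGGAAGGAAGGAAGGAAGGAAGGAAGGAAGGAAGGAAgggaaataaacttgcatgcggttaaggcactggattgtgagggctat
LINC01627: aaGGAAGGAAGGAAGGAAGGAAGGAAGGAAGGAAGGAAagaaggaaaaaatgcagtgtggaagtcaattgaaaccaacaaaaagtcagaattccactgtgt
LUCAT1: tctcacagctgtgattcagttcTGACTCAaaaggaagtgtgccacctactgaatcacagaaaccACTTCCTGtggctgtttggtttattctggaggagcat

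The summits clustered at the start sites. The median distance from the control summit to the nearest lncRNA TSS was 153 bp (quartiles 42 and 408 bp), 261 summits (28.1%) lay within 50 bp and 575 (61.8%) within 250 bp. The rule fixed the outer limit of 1 kb but not the crowding inside it. On the strand of the lncRNA, 505 summits lay upstream of the TSS, 419 lay downstream and 6 lay on it. The IFN-γ summits lay at a median of 174 bp from the same TSSs, with 210 within 50 bp and 25 beyond 1 kb. The TSSs and the 1 kb limit were set by the control summits, so a wider IFN-γ spread was built in. From the lncRNA TSS nearest to each IFN-γ summit, the median distance was 161 bp. At 517 peaks (55.6%) the nearest TSS was that of the gene's canonical transcript, and at 111 peaks (11.9%) lncRNA TSSs on both strands lay within 1 kb of the summit.

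**Figure D1:**
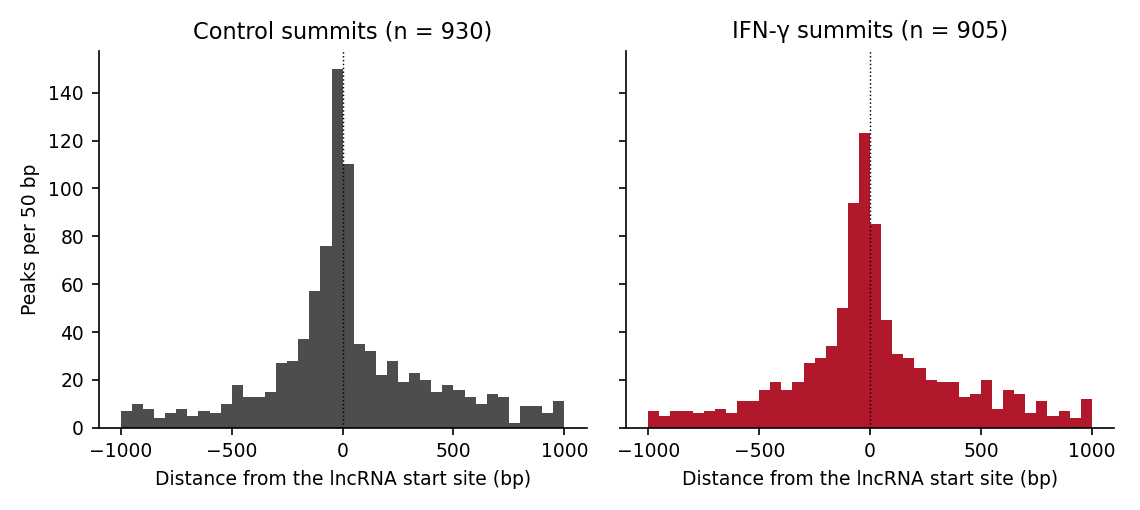
Distance of the 930 control summits and of the paired IFN-γ summits from the lncRNA TSS nearest to the control summit, in bp on the strand of the lncRNA, as peaks per 50 bp. The tallest column was the 50 bp just upstream of the TSS in both libraries, with 150 control and 123 IFN-γ summits, and 25 IFN-γ summits beyond 1 kb are not drawn.

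Most of the peaks were far from coding promoters. The nearest coding TSS was at a median of 31.2 kb, 200 peaks had one between 3 and 10 kb and 186 had none within 100 kb. Outside any coding gene lay 801 peaks, 100 lay inside a coding gene on the opposite strand to the lncRNA and 29 inside one on the same strand. Fold enrichment differed little over these classes. Its control median was 8.29 for the 200 peaks nearest to coding promoters and 7.30 for the 186 farthest from them. Of the 14015 lncRNA genes with a TSS over 3 kb from coding TSSs, 982 (7.01%) had one of the 930 peaks within 1 kb of a TSS. Any shared peak within 1 kb was found at 3214 of all 18866 lncRNA genes (17.0%). For coding genes this was 10219 of 20046, over 50% of them.

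Sharing was judged by overlap, and most pairs agreed closely in position. The median distance between the control summit and the IFN-γ summit was 34 bp, 563 peaks (60.5%) had summits within 50 bp and 130 had summits over 200 bp apart. The control peak overlapped 1 IFN-γ peak in 906 cases and at least 2 in 24, and 42 of the 930 shared their IFN-γ peak with another control peak. For these last peaks a ratio can set the shoulder of one library against the summit of a neighbour in the other.

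The strength of a peak is given on 2 scales. Fold enrichment is the authors' value at the summit, and the pileup is the count of fragments covering the summit, solved here from fold enrichment and −log10 p. Control fold enrichments ran from 2.59 to 83.3 with a median of 7.82, and IFN-γ fold enrichments from 2.31 to 92.4 with a median of 8.002. Summit pileups ran from 6 to 237 fragments in the control library (median 19) and from 8 to 660 in the IFN-γ library (median 29). The lowest background was 1.06 control fragments and 1.54 IFN-γ fragments, and their ratio, 1.46, was taken as the relative depth of the libraries. In the top 10% of each list by −log10 p stood 132 of the peaks (14.2%) for the control and 156 (16.8%) for IFN-γ, beside 12.9% and 16.7% of all shared peaks and 22.8% and 19.7% of the 10207 shared peaks with a summit within 1 kb of a coding TSS, called coding promoter peaks below.

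The tallest peaks belonged to lncRNAs of quite different kinds. LINC01503, an intergenic lncRNA, led with a control fold enrichment of 83.3 from 237 fragments, and had 55.6 from 416 fragments in the IFN-γ library. SNHG11, a snoRNA host, had 62.1 from 186 fragments and 29.9 from 209 fragments. MIR762HG, a microRNA host, had 59.1 and 58.3. The peaks of SNHG11 and MIR762HG had summits 8 and 12 bp from the TSS, and that of LINC01503 had its summit 263 bp downstream. In the IFN-γ library the highest fold enrichment of all 930 peaks was that of LINC01366, at 92.4 from 243 fragments, against 41.6 from 112 fragments in the control library. HCG20, a gene of the HLA complex region, had 142 control and 352 IFN-γ fragments, and ENSG00000290993 had 130 and 302. ENSG00000288612 and ENSG00000243176 completed the tall peaks without a symbol, at 149 and 155 control fragments and 230 and 203 IFN-γ fragments.

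For a ratio between the libraries, pileups were divided by the relative depth, and the interval of a single ratio is the exact binomial 95% interval, which covers counting error only. The local background does not enter this ratio, and at 125 of the 930 peaks it differed by over 1.5 times from the ratio of the fold enrichments. The median ratio of IFN-γ to control over the 930 peaks was 0.992 (order-statistic 95% interval of the median 0.969 to 1.03), with quartiles of 0.763 and 1.37. Over all 23895 shared peaks it was 1.02. The ratio was at least 2 at 78 of the peaks (8.39%), where 8.12% of all shared peaks reached it, and at most 0.5 at 49 (5.27%), where 3.99% did. The interval lay above 1 at 122 peaks and below 1 at 71, or 13.1% and 7.63%, beside 12.5% and 7.39% of all shared peaks. The shares were thus close to those of the whole list. The class lay between coding promoter peaks, with a median ratio of 0.833 (0.824 to 0.839), and the 9955 shared distal peaks, those with no annotated TSS within 3 kb, with 1.25 (1.23 to 1.26).

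The base composition of the promoter split the peaks into 2 unlike groups. A peak was called CpG-rich if the 501 bp around its control summit had a GC content of at least 50% and an observed to expected CpG ratio of at least 0.6. By this measure 350 of the 930 peaks (37.6%) were CpG-rich, against 81.4% of coding promoter peaks and 4.29% of distal peaks. CpG-rich lncRNA promoters had the higher fold enrichment in the control library, at a median of 10.2 against 7.10 for the 580 others, and about the same in the IFN-γ library, at 7.91 against 8.002. Their median ratio was 0.786 (0.753 to 0.828), with 4 peaks (1.14%) at least 2-fold higher and 40 (11.4%) at least 2-fold lower in the IFN-γ library. The 580 others had a median ratio of 1.17 (1.13 to 1.22), with 74 (12.8%) higher and 9 (1.55%) lower. Over the 711 peaks with summits within 100 bp of each other, the medians were 0.792 and 1.19.

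The same order appeared in coding and distal peaks once they were divided in this way. CpG-rich coding promoter peaks had a median ratio of 0.790 (n = 8306) and the other coding promoter peaks 1.12 (n = 1901). Of the former, 0.722% were at least 2-fold higher and 8.49% at least 2-fold lower, and of the latter 8.89% and 0.789%. CpG-rich distal peaks, of which there were 427, had a median ratio of 0.831, and the other distal peaks 1.27. The ratio also followed plain GC content. Among the lncRNA peaks it was 1.49 (1.33 to 1.75) below 45% GC, 1.22 (1.16 to 1.28) from 45% to 55%, 0.962 (0.927 to 1.00) from 55% to 65% and 0.687 (0.641 to 0.746) at 65% and above. Of the 122 lncRNA peaks below 45% GC, 35 were at least 2-fold higher and 0 at least 2-fold lower in the IFN-γ library, and of the 209 at 65% and above, 1 was higher and 36 were lower. The whole list had the same skew. Of all 4846 shared peaks below 45% GC, 1041 were higher and 22 lower, and of the 6662 at 65% and above, 36 were higher and 749 lower. Coding promoter peaks had median ratios of 1.48, 1.19, 0.958 and 0.729 in these bins and distal peaks 1.43, 1.24, 1.03 and 0.782. From 55% to 65% GC, CpG-rich lncRNA peaks had a median ratio of 0.902 (0.801 to 0.954, n = 142) and the others 1.02 (0.962 to 1.10, n = 184). GC content thus moved with the ratio in every class of peak, and its part in the differences between the libraries was not tested.

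**Figure D2:**
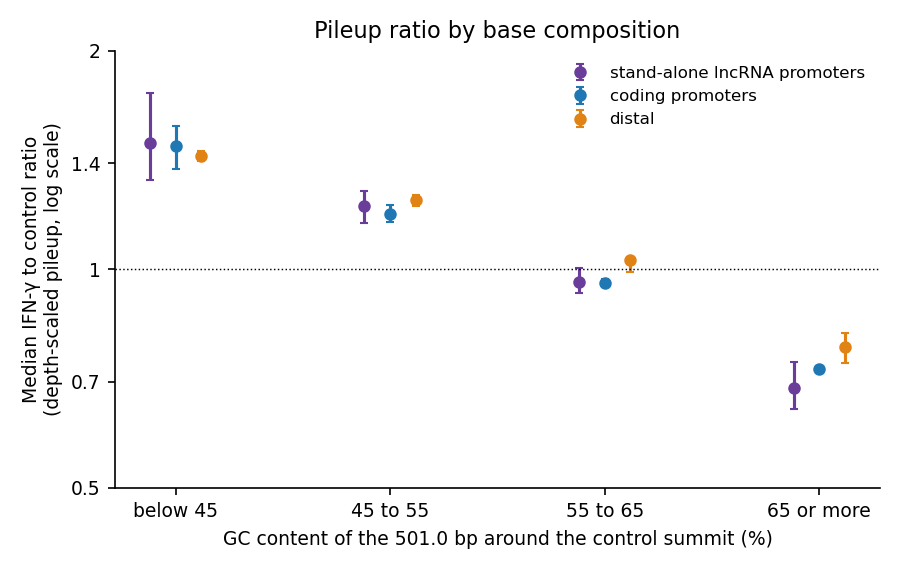
Median ratio of IFN-γ to control depth-scaled summit pileup (log axis) in bins of GC content of the 501 bp around the control summit, for stand-alone lncRNA promoter peaks, coding promoter peaks and distal peaks. Bars are order-statistic 95% intervals of the median over peaks, and in each class the ratio is highest below 45% GC, at 1.49 for the lncRNA peaks, and lowest at 65% GC and above, at 0.687.

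Nearly every window held the bare ETS core. Within 100 bp of the control summit, GGAA was found on either strand at 902 of the 930 peaks (97.0%), but also in 83.3% of windows of the same length 1 kb either side, so it separates few windows. The octamers CAGGAAGT and CCGGAAGT were found at 138 peaks (14.8%, 12.6% to 17.3%) and in 1.34% of the windows 1 kb away, and in 14.7% of all shared peaks, 16.3% of coding promoter peaks and 13.2% of distal peaks. Of the 154 octamers in the windows, 83 (53.9%) lay within 25 bp of the summit and the median distance was 23 bp. In the windows 1 kb away, 4 of 25 octamers (16%) lay that close to the centre. A match of letters is a description of the sequence and not a measured site.

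The form of the octamer followed composition. CCGGAAGT, which contains a CpG, was found at 45 peaks (4.84%), 33 of them CpG-rich, and in 11.1% of coding promoter and 1.57% of distal peaks. The median fold enrichment of these 45 lncRNA peaks was 15.0 in the control and 14.6 in the IFN-γ library. The 94 peaks with CAGGAAGT, of which 6 were CpG-rich, had 7.79 and 8.65. Over all 138 peaks with an octamer, the medians were 9.18 and 9.48, against 7.79 and 7.55 for the 792 without one. The octamer was present at 10.9% of CpG-rich and 17.2% of other lncRNA peaks.

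Motifs of other factors placed these promoters between coding promoters and distal sites. The heptamer TGACTCA, bound by AP-1 (dimers of FOS and JUN proteins), was found at 141 peaks (15.2%, 12.9% to 17.6%), against 4.82% of coding promoter peaks, 23.1% of distal peaks and 4.30% of windows 1 kb away. Among the lncRNA peaks it stood at 3.43% of CpG-rich and 22.2% of other windows. GGGCGG, the GC box bound by SP1, was found at 304 peaks (32.7%), with 60.3% of CpG-rich and 16.0% of other windows, beside 58.2% of coding promoter and 9.03% of distal peaks. CCAAT was found at 18.2%, near the 21.5% of windows 1 kb away. GAAANNGAA, a pattern of interferon regulatory factor sites, was found at 8.17% of the peaks against 6.72% of windows 1 kb away, 4.52% of coding promoter and 13.7% of distal peaks.

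GGAA repeats were few at these promoters. A run of at least 4 head-to-tail units lay within 100 bp of the summit at 33 peaks (3.55%, 2.45% to 4.95%), beside 8.59% of all shared, 0.519% of coding promoter and 17.0% of distal peaks. Of these 33 peaks, 0 were CpG-rich, and their summits lay at a median of 496 bp from the TSS, against 145 bp for the peaks without a run. Their median fold enrichment was 6.33 in the control and 12.6 in the IFN-γ library, and their median ratio was 1.87 (1.31 to 2.08), with 11 (33.3%) at least 2-fold higher and 0 at least 2-fold lower. Of all 2053 shared peaks with a run, 470 (22.9%) were higher and 3 lower, and 22.2% of the 1691 distal peaks with a run were higher. Below 55% GC, the 32 peaks with a run had a median ratio of 1.88 and the 363 without one 1.26, and over all shared peaks below 55% GC the values were 1.55 and 1.26. For AP-1 the medians below 55% GC were closer, at 1.33 (1.20 to 1.44) with it and 1.27 (1.19 to 1.37) without it.

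The longest repeats were not the strongest peaks. ENSG00000260580, whose run of 25 units was the longest, had 12 control and 19 IFN-γ fragments, a ratio of 1.09 (0.50 to 2.46). ENSG00000251460, with 17 units, had 11 and 16 fragments. Of the 3 peaks with 15 units, LINC01627 had 17 and 52 fragments and a ratio of 2.101 (1.20 to 3.88), ENSG00000266505 had 18 and 49, and LINC02304 had 18 and 36. The median ratio was 1.87 both for the 16 peaks with 4 to 7 units and for the 17 with at least 8.

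GP6-AS1, named as antisense to the platelet collagen receptor gene GP6, had 6 octamers within 100 bp of its summit, 5 of them in the window printed above. It had 42 fragments in the control and 135 in the IFN-γ library, fold enrichments of 20.9 and 32.5 and a ratio of 2.21 (1.55 to 3.20). MIATNB, with 3 octamers, had 94 and 209 fragments and a ratio of 1.53 (1.19 to 1.97). NAV2-IT1 and GIHCG had 2 each, with 22 and 25 control fragments, 43 and 31 IFN-γ fragments and ratios of 1.34 (0.79 to 2.36) and 0.85 (0.49 to 1.504). ENSG00000290028, also with 2, had 37 and 95 fragments and a ratio of 1.76 (1.19 to 2.65), with closer fold enrichments of 15.2 and 17.1. The intervals of GP6-AS1, MIATNB and ENSG00000290028 left out 1 and those of NAV2-IT1 and GIHCG held it.

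The snoRNA hosts were the best covered of the named lists. These genes carry, in their introns, snoRNAs that guide the modification of other RNAs, mostly ribosomal RNA. Of the 30 annotated as lncRNA genes, 23 had a TSS over 3 kb from coding TSSs, and 13 of the 23 (56.5%) had one of the peaks, beside 7.01% of all such lncRNA genes. A gene with more annotated transcripts can have more TSSs at which a peak counts. These 13 genes had from 5 (SNHG21) to 118 (SNHG17) transcripts. The shares of this and the following lists were not adjusted for transcript number. All 13 peaks were CpG-rich and 0 held an ETS octamer. Their median fold enrichment was 10.2 in the control and 5.94 in the IFN-γ library and their median ratio was 0.883, with 0 at least 2-fold higher and 3 at least 2-fold lower. Over all CpG-rich lncRNA peaks the median was 0.786, and 1.14% were at least 2-fold higher and 11.4% at least 2-fold lower.

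Single snoRNA hosts ranged widely. SNHG11 had 186 control and 209 IFN-γ fragments, a ratio of 0.77 (0.63 to 0.95), and SNHG17, with its summit 11.2 kb away and on the other strand, had 124 and 171, a ratio of 0.95 (0.75 to 1.20). SNHG7 had 57 and 27 fragments, a ratio of 0.33 (0.20 to 0.52), over local backgrounds of 1.68 and 8.85 and with fold enrichments of 21.7 and 2.84. SNHG26 had 37 and 25 fragments (0.46, 0.27 to 0.79), EPB41L4A-AS1 had 25 and 18 (0.49, 0.25 to 0.94), with nearly equal fold enrichments of 3.88 and 3.62, and DANCR had 20 and 15 (0.52, 0.25 to 1.06). The intervals of SNHG7, SNHG26, EPB41L4A-AS1 and SNHG11 lay below 1, and those of the other 9 held 1. Over all 930 peaks, 7.63% of intervals lay below 1.

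The microRNA hosts had 22 peaks, 13 of them CpG-rich. These lay at 19 of 73 genes with a TSS over 3 kb from coding TSSs. That share of 26.0%, beside 7.01% of all such lncRNA genes, was likewise not adjusted for transcript number. The median ratio of the peaks was 0.932. By at least 2-fold, 1 peak was higher and 3 were lower, beside 8.39% and 5.27% of all 930 peaks. MIR17HG, host of the miR-17 cluster of growth-linked microRNAs, had 65 control and 32 IFN-γ fragments, a ratio of 0.34 (0.21 to 0.52). MIR23AHG had 23 and 10 fragments, a ratio of 0.30 (0.13 to 0.65), and MIR3667HG had 24 and 16, a ratio of 0.46 (0.23 to 0.90). MIR29B2CHG had 23 and 17 fragments, a ratio of 0.51 (0.25 to 0.99). The let-7 hosts, whose microRNAs restrain growth genes, had tall peaks with pileup ratios whose intervals held 1. MIRLET7A1HG had 102 and 115 fragments (0.77, 0.59 to 1.02), the taller peak of MIRLET7BHG 95 and 136 (0.98, 0.75 to 1.29) and MIRLET7IHG 51 and 63 (0.85, 0.58 to 1.25). In this order, their fold enrichments were lower in the IFN-γ library, at 40.7 and 25.5, 35.9 and 24.5, and 19.4 and 14.1. MIR4280HG stood alone at the upper end with 27 and 121 fragments, a ratio of 3.08 (2.01 to 4.86), in a window of 32.9% GC, though its IFN-γ peak was shared with another control peak.

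**Figure D3:**
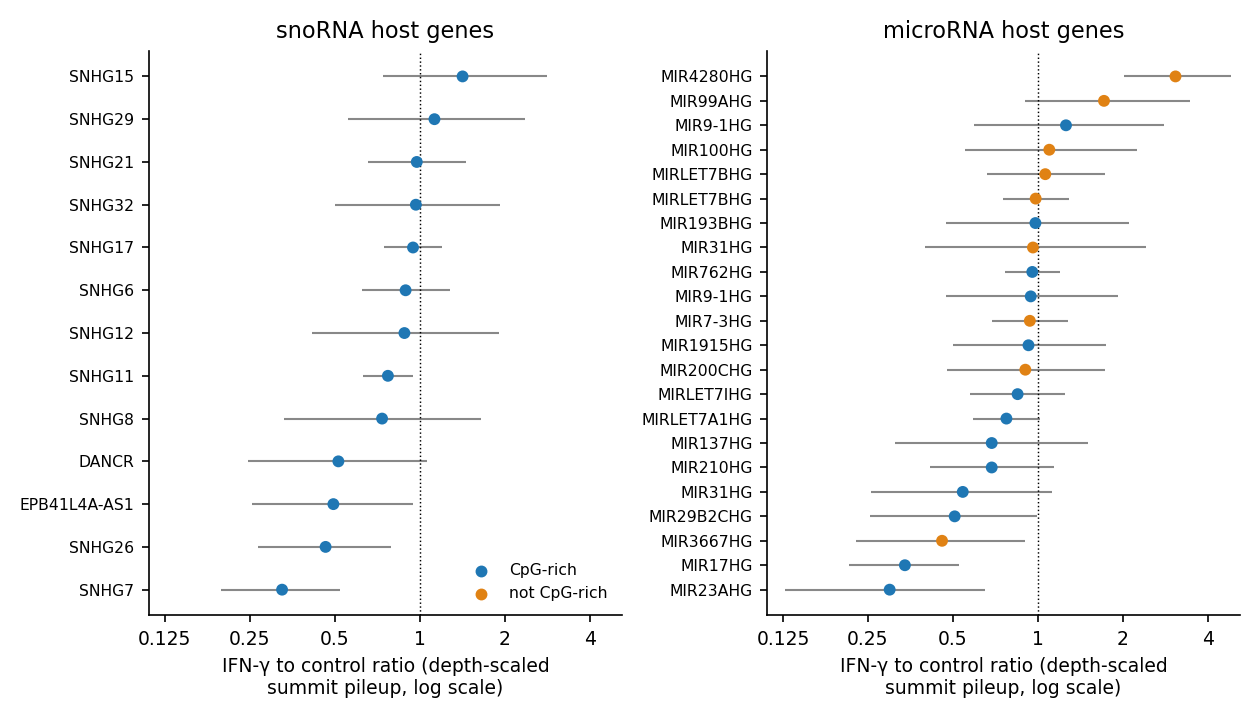
Ratio of IFN-γ to control depth-scaled summit pileup (log axis) at the 13 snoRNA host and 22 microRNA host peaks, 1 row a peak, with exact binomial 95% intervals for counting error only and points coloured by base composition. Intervals lie below 1 at 4 of the 13 snoRNA hosts and, among microRNA hosts, at MIR17HG, MIR23AHG, MIR3667HG and MIR29B2CHG. MIR4280HG alone has an interval above 1. Over all 930 peaks, 7.63% of intervals lie below 1 and 13.1% above.

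Among 41 well-studied lncRNA genes with a TSS over 3 kb from coding TSSs, 18 (43.9%) had a peak within 1 kb of a TSS, beside 7.01% of all such lncRNA genes. Transcript number was again not adjusted for, and it was 1 at NORAD and 190 at PVT1. The 34 peaks of the 18 genes, 13 of them CpG-rich, had a median ratio of 1.36. At least 2-fold higher were 7 and lower was 1, beside 8.39% and 5.27% of all 930 peaks. The 7 were CASC19 peaks at 2.05, 2.29 and 2.67, with PVT1 at 2.82, FIRRE at 2.52, UCA1 at 2.46 and LUCAT1 at 2.23. NORAD, which binds PUMILIO proteins, had 105 control and 121 IFN-γ fragments at a summit 16 bp downstream of its TSS, a ratio of 0.79 (0.60 to 1.04). NEAT1, the scaffold of paraspeckles, had 60 and 79 fragments (0.90, 0.64 to 1.29). MALAT1, an abundant RNA of nuclear speckles, had 3 peaks. The peak 1 bp from its canonical TSS, CpG-rich at 70.7% GC, had 39 and 33 fragments (0.58, 0.35 to 0.95), the one at a downstream TSS, at 39.5% GC, had 48 and 94 (1.34, 0.94 to 1.95), and the third had 13 and 19 (1.00, 0.47 to 2.21). TERC, the RNA template of telomerase, had 20 and 44 fragments (1.51, 0.87 to 2.71).

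LINC-PINT, a lncRNA induced by p53, had a CpG-rich peak of 79.2% GC with 72 control and 56 IFN-γ fragments (0.53, 0.37 to 0.77) and a peak of 48.3% GC with 26 and 56 (1.48, 0.91 to 2.45). LINC00963 had a CpG-rich peak with 61 and 41 fragments (0.46, 0.30 to 0.70) and a peak of 55.9% GC with 17 and 43 (1.74, 0.97 to 3.25), the latter with summits 1393 bp apart and an IFN-γ peak shared with another control peak. Its other 2 peaks had 0.93 (0.56 to 1.58) in a CpG-rich window, with summits 1248 bp apart, and 1.37 (0.64 to 3.14) in a window of 62.1% GC that was not CpG-rich. UCA1, a lncRNA raised in bladder cancer, had 17 and 61 fragments (2.46, 1.42 to 4.50) over backgrounds of 1.06 and 5.66, and its fold enrichments were nearly equal, at 8.76 and 9.30. In DLEU2, host of miR-15a and miR-16-1, both peaks were CpG-rich, with ratios of 0.59 (0.33 to 1.05) and 0.98 (0.72 to 1.34). LINC00511, with 3 peaks outside CpG-rich windows, had ratios of 1.05 to 1.46, and H19, an imprinted growth-restraining lncRNA, had 3 peaks with ratios of 0.98 to 1.58, and each of these 6 intervals held 1. The 2 higher ratios of H19 rest on 1 and the same IFN-γ peak, with summits 541 bp apart in one pair, and the 1.46 of LINC00511 stands beside fold enrichments of 8.46 and 19.7. JPX had 51 and 66 fragments (0.89, 0.61 to 1.31) with fold enrichments of 15.5 and 26.4, LINC01116 had 14 and 14 (0.69, 0.30 to 1.55) and FIRRE had 6 and 22 (2.52, 0.99 to 7.59). DLEU1 and LINC00467 were counted through peaks nearer to the TSS of another lncRNA gene.

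CASC19 and PVT1, both on chromosome 8, had 4 peaks each. The coding gene with the nearest TSS was POU5F1B for the CASC19 peaks and MYC for the PVT1 peaks. The tallest of CASC19 had 170 control and 660 IFN-γ fragments, the highest IFN-γ pileup of all 930 peaks, with fold enrichments of 21.8 and 55.4 and a ratio of 2.67 (2.25 to 3.17). Its other 3 peaks had ratios of 1.76, 2.05 and 2.29, and the intervals of all 4 lay above 1. At the one with 1.76, which had 50 and 128 fragments over backgrounds of 2.14 and 7.08, the fold enrichments were nearly equal, at 16.2 and 16.0. The windows of the 4 peaks had 38.7% to 40.9% GC. The tallest had its summit 877 bp downstream of the nearest lncRNA TSS. The summits with 2.05 and 2.29 lay 893 and 871 bp upstream of theirs, and that with 1.76 lay 216 bp upstream. The local control background at these 4 summits ran from 2.14 to 20.8 fragments, against a lowest value of 1.06 in the library. PVT1 was uneven, with ratios of 0.74 (0.50 to 1.11) at a peak of 50 and 54 fragments and 2.82 (1.71 to 4.85) at a peak of 20 and 82 fragments that held a run of 4 GGAA units. Its other 2 peaks, with ratios of 0.95 and 1.23, paired with 1 and the same IFN-γ peak. Outside these genes, MINCR had the second-highest control fold enrichment, 71.0, and 61.0 in the IFN-γ library, from 173 and 263 fragments (1.04, 0.86 to 1.27).

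Of 19 lncRNA genes linked to interferon or inflammation with a TSS over 3 kb from coding TSSs, 4 (21.1%) had a peak. Of all such lncRNA genes 7.01% did, again without adjustment for transcript number. The 5 peaks of these 4 genes had a median ratio of 1.44. At least 2-fold higher was 1 and lower were 0, beside 8.39% and 5.27% of all 930 peaks. LUCAT1 had 2. At the first, 36 bp upstream of a TSS, 53 control and 172 IFN-γ fragments gave a ratio of 2.23 (1.63 to 3.09), and at the other 31 and 65 fragments gave 1.44 (0.93 to 2.29). LINC00513 had 20 and 52 fragments (1.79, 1.05 to 3.16), PCED1B-AS1 had 24 and 39 (1.12, 0.65 to 1.94) and MIR210HG, a hypoxia-induced microRNA host, had 34 and 34 (0.69, 0.41 to 1.14), with fold enrichments of 13.1 and 13.7. The windows of LUCAT1, LINC00513 and PCED1B-AS1 had 39.9% to 44.9% GC, and that of MIR210HG 82.2%. Of all 26 genes of this list annotated as lncRNA, 6 had a shared peak beside a coding TSS, 4 had a peak in 1 library alone and 12 had none.

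The lowest ratios among peaks with at least 60 fragments over both summits came from CpG-rich windows of 65.3% to 79.8% GC. DPY19L2P3, an annotated lncRNA named as a pseudogene of DPY19L2, had 48 control and 16 IFN-γ fragments, a ratio of 0.23 (0.12 to 0.41). LINC01376 had 38 and 22 fragments (0.40, 0.22 to 0.69) and ENSG00000267737 had 37 and 23 (0.43, 0.24 to 0.74). SNHG7 and MIR17HG, described above, were the other 2 of the lowest 5. Summits were within 53 bp of each other in 4 of these 5 and 285 bp apart at ENSG00000267737.

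The 5 highest ratios came from pairs whose summits did not coincide. ENSG00000290105, ENSG00000249061, LINC02352, LINC02298 and HCG27 had ratios from 5.92 to 8.33, but their summits in the 2 libraries lay 608 to 1498 bp apart and each shared its IFN-γ peak with another control peak. Among peaks with summits within 100 bp, the highest, chosen after their values were seen, were ENSG00000250934 with 26 control and 207 IFN-γ fragments and a ratio of 5.47 (3.63 to 8.57), LINC00659 with 71 and 349 (3.38, 2.61 to 4.42) and LINC01426 with 17 and 80 (3.23, 1.90 to 5.82). ENSG00000250934 had its summit 6 bp upstream of a TSS, in a window of 34.7% GC, and the nearest coding TSS, that of KLF15, was 69.5 kb away. Neither it nor LINC00659 held an octamer or a GGAA run, and LINC01426 held 1 octamer.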

How the data were processed

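Flag ChIP-seq peak lists of 2 libraries were used, and the 2 input libraries are not analysed here. Per the methods, the authors used Cutadapt 1.18 for trimming, Bowtie2 2.3.4.1 for alignment to GRCh38, picard for removal of duplicates and MACS2 2.1.2 for peak calls at a p cutoff of 0.01. The lowest deposited −log10 p was 3.52 in the control and 3.46 in the IFN-γ list, so both lists were cut more strictly than that. Whether the input entered the calling is not given in the sources used here. The deposited columns are fold enrichment (a ratio), −log10 p and −log10 q values, a display score that was not used, and positions, converted here to 1-based. The summit pileup and background were solved from the deposited fold, (pileup + 1) over (background + 1), and the Poisson −log10 p, with a largest relative error of 6.21e-06.

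TSSs came from GENCODE 44, which the authors' lists do not name. Composition was taken over 501 bp and motifs over 201 bp, on both strands. The peaks, gene lists and limits were chosen with earlier results of these data known. Genes were named from the 10 with the best mean rank, the 5 highest and 5 lowest ratios with at least 60 fragments, list members, the 5 longest runs, the 5 with most octamers and those nearest each limit; others are said to have been chosen after their values were seen. With 1 library per condition no p-value was computed. Pileup recovery, pairing of peaks, distances to TSSs, motif search and run search returned 100% of known answers on simulated data. Other steps were not checked in this way, and the simulated pileups and backgrounds did not reach the highest in the data. The tools were samtools 1.23.1 and Python 3.11.15 with pandas 2.3.3, scipy 1.17.1, numpy 2.4.6, matplotlib 3.10.9 and pysam 0.24.0. A further motif searched is not reported here.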

Additional observations from a re-analysis of the deposited data

How the results depend on the processing

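Of 38 alternatives, 29 moved a value by less than its limit (1.5 times for a count, the interval for a share or median). The median ratio of the lncRNA peaks stayed between 0.970 and 1.01 with other scalings, overlaps and q-value limits, including the pairs of 1 control with 1 IFN-γ peak, chosen after seeing the data. The number of peaks fell to 575 with a limit of 250 bp to the lncRNA TSS. With a fold limit of 1.5, 179 were higher and 154 lower. The share with the octamer was 11.2% within 50 bp of the summit, 19.6% in the whole peak, 97.0% for the core GGAA and 4.84% for CCGGAAGT alone. Runs of at least 6 units were at 2.37%, and the median TSS distance was 185 bp with 1 TSS per gene.

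No paired analysis was possible because 1 library stood for each condition. A median summit of 19 control fragments leaves wide counting intervals, variation between cultures was not measured, and a site missing from a list was under its calling limit and not shown to be unbound.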
